A study of Nannospalax ehrenbergi and Mus musculus with 14 samples.

Results

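The microRNAs miR-296 and miR-298 are neighbors beside the *Gnas* locus of the mouse genome, and their levels were followed here in *Spalax*, the blind mole rat, and in mice that carried tumors after injection of 3-methylcholanthrene (3MCA), a chemical carcinogen. All rows named miR-296 or miR-298 apart from the arm were taken, which gave 4 of the 1326 microRNA arms in the tables: miR-296-5p, miR-296-3p, miR-298-5p and miR-298-3p. The pair was chosen by measured values, since the difference between granuloma and fibrosarcoma in *Spalax* had been seen earlier for miR-296, and those *Spalax* contrasts are therefore given as a description without a test. The study itself had singled out miR-296 over all its tumor comparisons as a microRNA linked to *Cdkn1a*, the gene of the cell-cycle inhibitor p21.

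A microRNA hairpin is cut from a longer transcript and yields 2 short strands, named 5p and 3p after the arm they come from, and either strand can be loaded into the silencing complex and repress messenger RNAs. The *Gnas* cluster is imprinted, which means that parts of it are transcribed from 1 parental copy only, and miR-296 and miR-298 come from the side of the paternally expressed antisense transcript *Nespas*. miR-296 has been studied for targets such as *Cdkn1a* and for roles in blood vessel growth and in embryonic stem cells, while miR-298 is known for repressing *Bace1*, which encodes an enzyme of amyloid processing.

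All animals with a label had received 3MCA, *Spalax* 1 mg in 500 µl and mice 200 µg in 200 µl. Each animal was sampled at its tumor, on the injected side (IS), and in muscle of the opposite, uninjected side (UIS). There were 2 *Spalax* with a granuloma, a benign mass of inflamed fibrous tissue (animals Sp600 and Sp976, at 14 and 16 months), 2 *Spalax* with a fibrosarcoma, a malignant connective tissue tumor (Sp2240 and Sp2230, at 18 and 30 months), and 3 mice with a fibrosarcoma (M512, M1023 and M1019, at 11, 12 and 14 weeks). The mice were 3 to 4 months old, and the *Spalax*, whose age could only be estimated, ranged from about 2 to over 10 years, with no age tied to an animal. One mouse UIS library carries an animal number that no label has, and it is called the unpaired library here. The labels also list an uninjected side of M1019, to which no column could be matched by its number, and whether the unpaired library is that sample is not known. Both sides could thus be matched in 6 animals, without M1019. No library labeled as coming from an uninjected animal was used here. The unpaired library was placed with the mouse UIS by its name, and no label gives the treatment of its animal.

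The libraries held 2034574 to 13982842 reads on microRNAs, with 2034574 to 9574014 on the IS and 11446933 to 13982842 on the UIS. Muscle microRNAs such as miR-1a and miR-133a made up 35.2% to 37.3% of the reads in *Spalax* UIS and 27.7% to 29.8% in mouse UIS, but 0.00959% to 3.95% in the IS libraries. The sum of miR-199a, miR-199b and miR-214, which are abundant in fibroblasts, was 19.97% to 20.9% in granulomas, 5.55% to 11.4% in *Spalax* fibrosarcomas, 7.47% to 15.6% in mouse fibrosarcomas and 0.427% to 1.96% on the UIS. The myeloid microRNAs miR-223 and miR-142a made up 0.0242% to 0.0568% on the UIS, 0.638% to 0.774% in granulomas, 0.786% to 2.35% in *Spalax* fibrosarcomas and 0.316% to 1.58% in mouse fibrosarcomas. The part of these cell types in the results was not tested. The RNA came from pieces of tissue, so fewer cells of a type and less RNA per cell cannot be told apart.

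In the mouse annotation (GENCODE M21 on GRCm38) both hairpins lie on the minus strand of chromosome 2, Mir296 at chr2:174267047-174267125 and Mir298 at chr2:174267504-174267585, with 378 bases between them. Neither overlaps an exon or intron of another annotated gene. *Nespas* lies 13651 bases from Mir298 on the same strand, and *Gnas*, which encodes the stimulatory G protein alpha subunit, lies 16734 bases away on the plus strand. The hairpins are printed from 5′ to 3′ as the mouse annotation has them, because the counts of the 2 arms of one hairpin are compared further on. Capitals mark the terminal loop in the fold predicted by RNAfold, so that the 5p strand comes from the letters before it and the 3p strand from those after it. They are 79 and 82 bases long, with a predicted folding energy of -43.2 kcal/mol for Mir296 and -42.7 kcal/mol for Mir298.
Mir296: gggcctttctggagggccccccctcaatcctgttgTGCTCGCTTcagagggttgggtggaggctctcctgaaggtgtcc
Mir298: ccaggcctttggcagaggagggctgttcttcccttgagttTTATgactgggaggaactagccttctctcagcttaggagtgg

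**Figure D1:**
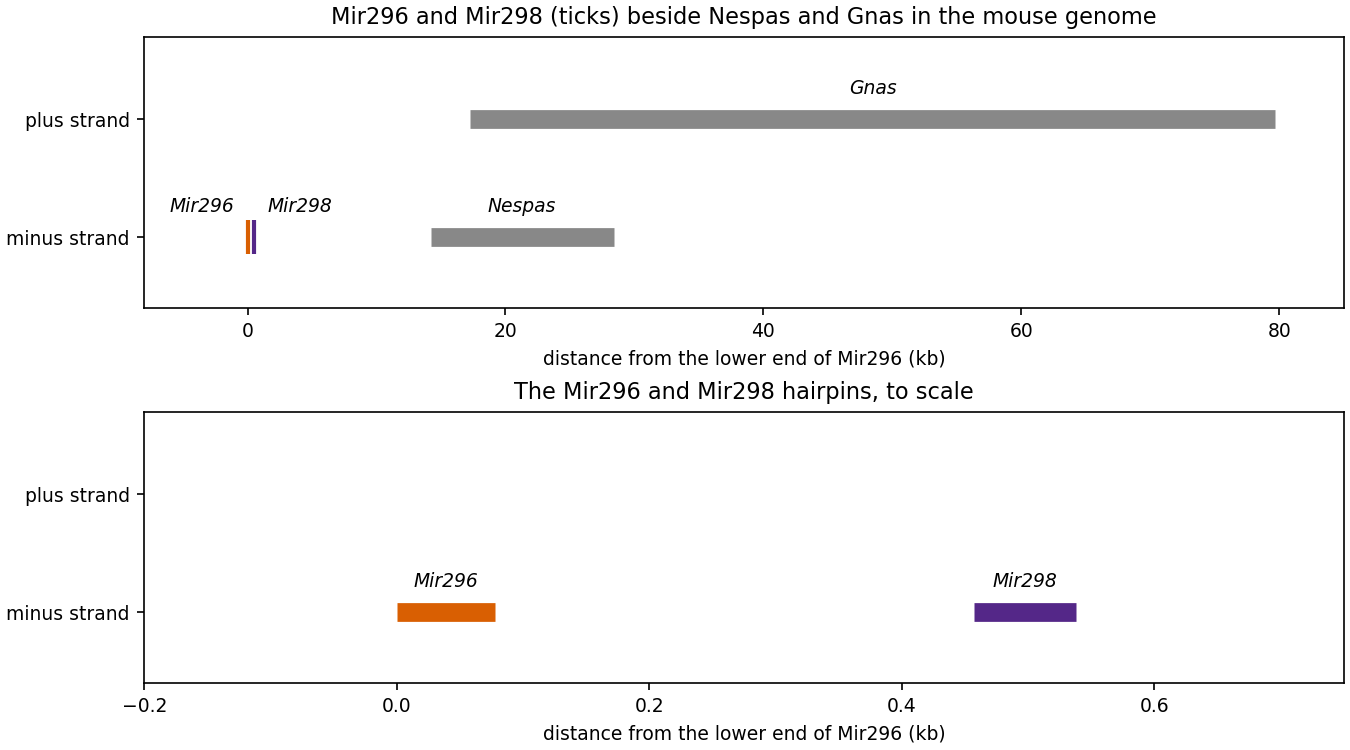
Position of Mir296 and Mir298 on the mouse chromosome, in kb from the lower end of Mir296 (horizontal axis), with the strand on the vertical axis. The upper panel has the 2 hairpins as ticks beside Nespas, 13.651 kb from Mir298, and Gnas, 16.734 kb from it, and the lower panel draws the 2 hairpins to scale, 378 bases apart.

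The most abundant of the 4 arms was miR-298-5p in every library. In the granuloma animals its normalized count (reads divided by the size factor of the library) was 488.9 and 353 on the UIS of Sp600 and Sp976 and 1908 and 1401 on the IS. In the fibrosarcoma animals it was 498 and 488.8 on the UIS of Sp2230 and Sp2240 and 126.9 and 241 on the IS. The IS was thus above the UIS in both granuloma animals, by 3.90 and 3.97 times, and below it in both fibrosarcoma animals, by 3.93 and 2.03 times. The order of the group means was granuloma IS (1655 ± 359, SD, n = 2), fibrosarcoma UIS (493.6 ± 6.69), granuloma UIS (421 ± 95.9) and fibrosarcoma IS (184 ± 80.6), and only the 2 uninjected groups overlapped.

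miR-296-3p had the widest span between the tumor types. Its normalized count was 73.7 and 30.5 on the UIS of Sp600 and Sp976 and 619 and 499.1 in their granulomas, which is 8.40 and 16.4 times higher. It was 61.4 and 65.7 on the UIS of Sp2230 and Sp2240 and 17.4 and 19.5 in their fibrosarcomas, which is 3.52 and 3.36 times lower. The granulomas stood above all other *Spalax* libraries and the fibrosarcomas below them, while the UIS groups overlapped. By group the means were 559 ± 84.8 in granuloma IS, 63.5 ± 3.04 in fibrosarcoma UIS, 52.1 ± 30.5 in granuloma UIS and 18.5 ± 1.49 in fibrosarcoma IS (SD, n = 2 each).

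miR-296-5p was less far apart in the granulomas and farther in the fibrosarcomas. Its normalized count was 116 and 112 on the UIS of Sp600 and Sp976 and 270 and 165 on the IS, 2.32 and 1.47 times higher. It was 118 and 153.97 on the UIS of Sp2230 and Sp2240 and 19.6 and 8.68 on the IS, 6.02 and 17.7 times lower. The value of 8.68 rests on 4 reads, close to the 3 reads set as the floor of detection. The means were 217 ± 74.2 in granuloma IS, 135.96 ± 25.5 in fibrosarcoma UIS, 114 ± 3.10 in granuloma UIS and 14.1 ± 7.72 in fibrosarcoma IS (SD, n = 2 each), and the 2 uninjected groups differed by less than the larger SD.

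miR-298-3p had no read in any of the 8 *Spalax* libraries, which allows a share of up to 2.30e-05% to 0.000147% of a library's reads. In mice it was at 0 in 4 libraries, at 2 reads in the fibrosarcoma of M1023 and at 6 reads in that of M1019. It did not pass the filter on low values, so that 3 of the 4 arms entered the tests.

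**Figure D2:**
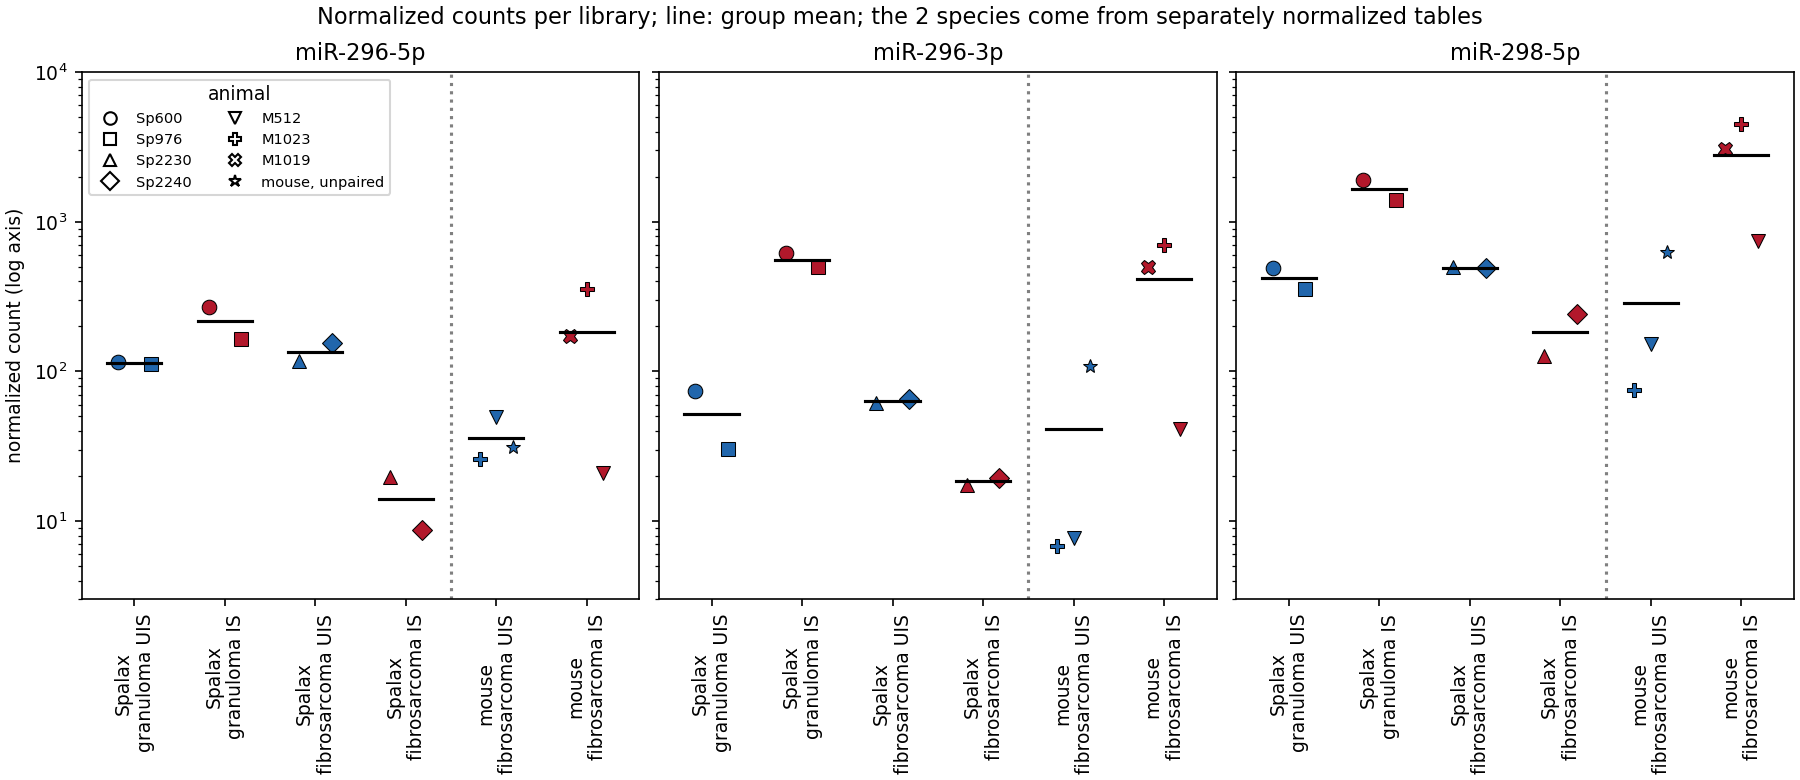
Normalized counts of miR-296-5p, miR-296-3p and miR-298-5p in each library on a log axis, by group, with symbols for animals, blue for the uninjected and red for the injected side and a line at the group mean. All 3 arms are highest in the Spalax granulomas and lowest in the Spalax fibrosarcomas among the Spalax libraries. The mouse values stand to the right of the dotted line because their table was normalized separately.

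On the log2(normalized count + 1) scale of the fit by limma, miR-296-3p was higher in granuloma IS than UIS by 3.52 ± 0.54 (SE), miR-298-5p by 1.97 ± 0.47 and miR-296-5p by 0.88 ± 0.54. The differences between fibrosarcoma IS and UIS were -1.73 ± 0.54, -1.49 ± 0.47 and -3.27 ± 0.54 for the same 3 arms. Across all 447 microRNAs tested, 216 (48.3%) passed an adjusted p of 0.05 in granuloma and 167 (37.4%) in fibrosarcoma, so that a change between the sides was common. The granuloma change exceeded the fibrosarcoma change by 5.25 ± 0.76 for miR-296-3p, 4.15 ± 0.77 for miR-296-5p and 3.47 ± 0.66 for miR-298-5p, which placed them at 6, 33 and 53 of 447 from the highest. For this difference of changes 17 microRNAs (3.8%) passed. These positions restate the values the pair was chosen on. The granuloma animals were also sampled sooner after injection than the fibrosarcoma animals. Of these *Spalax*, only Sp2230 was male in the study's list of animals. A difference by tumor type cannot be told apart from time after injection, nor fully from sex.

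The scale matters for the direction in fibrosarcoma. With reads scaled to library totals, the median of all microRNAs moved from 0.13 to 1.90 in granuloma and from -0.23 to 1.4004 in fibrosarcoma, and the share of higher values among the microRNAs called went from 52.8% to 83.5% and from 40.7% to 82.5%. On that scale miR-296-5p was still lower in fibrosarcoma IS (-1.64), miR-296-3p was at -0.09 and miR-298-5p turned to 0.19. As a share of reads, miR-298-5p in the fibrosarcoma was 0.829 times the UIS in Sp2230 and 1.57 times in Sp2240. Relative to the median of all microRNAs on the deposited scale the 3 arms were at -3.03 (miR-296-5p), -1.50 (miR-296-3p) and -1.26 (miR-298-5p).

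The mouse libraries had no part in the *Spalax* contrast, although the study picked miR-296 with mouse in view, and in them only miR-298-5p passed the test. Its normalized count was 75.5 in M1023, 152 in M512 and 628 in the unpaired library on the UIS, against 4534 in M1023, 742 in M512 and 3067 in M1019 on the IS. The 2 sides did not overlap, and miR-298-5p rose by 3.49 ± 0.95 on the log2 scale (SE; limma, adjusted p = 0.0190), with 60.1 and 4.89 times more on the IS within M1023 and M512. Of all 547 microRNAs tested in mice, 316 (57.8%) passed. The call was lost when the UIS of M1023 (adjusted p = 0.0635), the IS of M1023 (0.0574) or the UIS of M512 (0.0650) was left out.

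miR-296-3p was at 6.86 in M1023, 7.69 in M512 and 109 in the unpaired library on the mouse UIS, the first 2 of these values resting on 5 and 4 reads. On the IS it was 698 in M1023, 41.1 in M512 and 499.04 in M1019. The unpaired UIS library was above the tumor of M512, so the sides overlapped, and the difference of 3.65 ± 1.397 did not pass (limma, adjusted p = 0.0584). With the animal as a block, which pairs the sides of M1023 and M512 only, it was 4.38 and passed (limma, adjusted p = 0.0198).

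miR-296-5p was at 26.1 in M1023, 50.0 in M512 and 31.2 in the unpaired library on the mouse UIS, and at 356, 21.1 and 173 in the tumors of M1023, M512 and M1019. It was 13.6 times higher on the IS in M1023 and 2.37 times lower in M512, although as a share of reads it was 2.96 times higher in M512 too, and the difference of 1.65 ± 1.00 did not pass (limma, adjusted p = 0.192). Without the tumor of M512 it was 2.81 and passed (adjusted p = 0.00686). Scaled to library totals, the mouse differences were 3.97, 5.87 and 5.86 for miR-296-5p, miR-296-3p and miR-298-5p (limma, adjusted p = 0.00782, 0.00730 and 0.00156), beside a median of all microRNAs that moved from 0.21 to 2.58 and a share of higher values among those called that went from 55.7% to 92.3%.

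**Figure D3:**
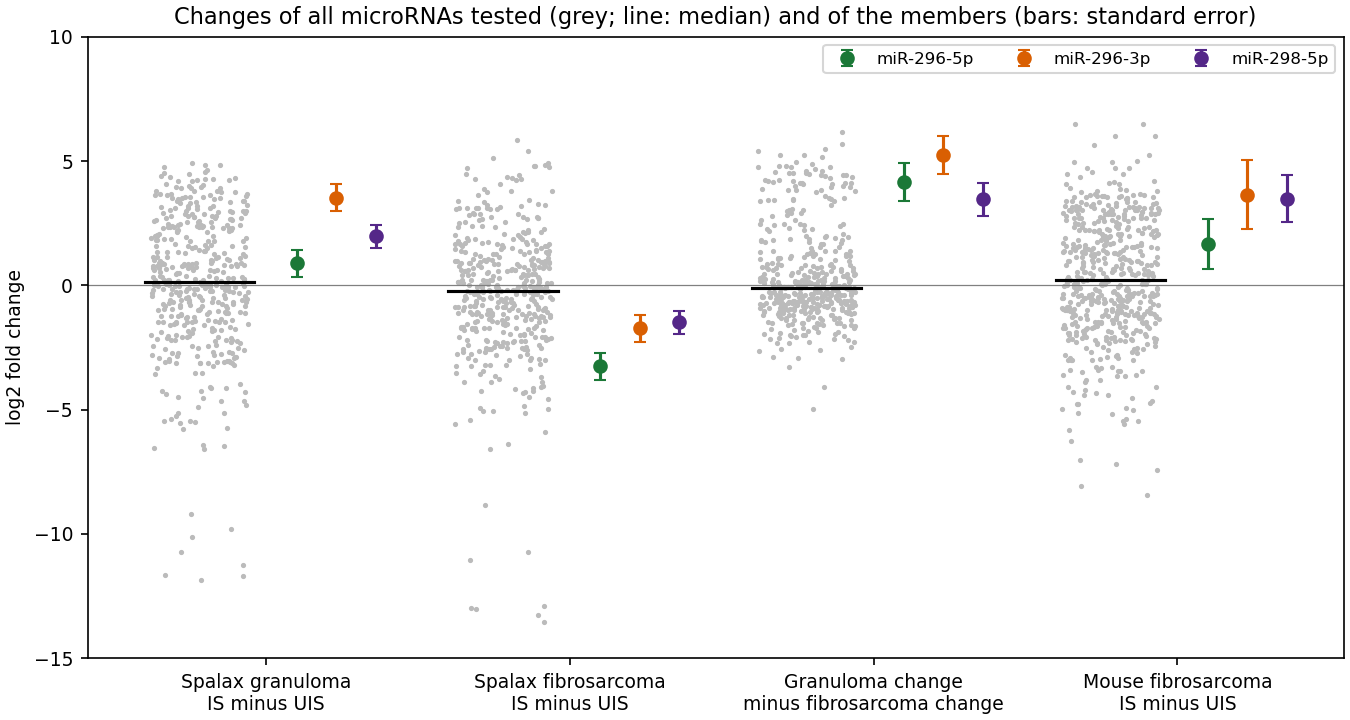
Log2 fold changes (vertical axis) in 4 comparisons, with every microRNA tested as a grey point, their median as a line, and miR-296-5p, miR-296-3p and miR-298-5p as colored points with standard errors. The 3 arms lie above the median in granuloma (0.88, 3.52 and 1.97), below it in Spalax fibrosarcoma (-3.27, -1.73 and -1.49) and above it in mouse fibrosarcoma (1.65, 3.65 and 3.49).

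On the side without a tumor, the animals with granuloma and those with fibrosarcoma did not differ detectably in any of the 3 arms. The UIS libraries are part of the contrast the pair was chosen on, so for the pair this comparison is not an independent test. The granuloma-bearing minus fibrosarcoma-bearing differences were -0.24 ± 0.54 for miR-296-5p, -0.41 ± 0.54 for miR-296-3p and -0.25 ± 0.47 for miR-298-5p (SE; limma, adjusted p = 1 for each). None of the 447 microRNAs passed in this comparison (0%), with 5 at an unadjusted p under 0.05 by limma, and edgeR and DESeq2 also called 0, with 7 and 10 at an unadjusted p under 0.05.

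The table that holds both species on one scale allows *Spalax* UIS to be set against the UIS of mice M1023 and M512. miR-298-5p was at 353 to 498 in the 4 *Spalax* libraries and at 57.0 and 123 in the mice, higher in *Spalax* by 2.42 ± 0.65 (SE; limma, adjusted p = 0.0130). miR-296-3p was at 30.5 to 73.7 against 5.18 and 6.24, a difference of 3.06 ± 0.93 (limma, adjusted p = 0.0236), and miR-296-5p was at 112 to 153.97 against 19.7 and 40.6, a difference of 2.09 ± 0.91 that did not pass (adjusted p = 0.0944). The UIS values of the species in this table did not overlap for any of the 3 arms. How many of the 607 microRNAs tested were also without overlap was not counted. The call for miR-296-3p was lost in 5 of the 6 fits that left out 1 UIS library, without M1023 (2.95, adjusted p = 0.117), M512 (3.18, 0.0973), Sp2230 (3.09, 0.0504), Sp2240 (3.04, 0.0552) or Sp600 (2.75, 0.0672), and that for miR-298-5p without M1023 (1.87, 0.128), all by limma. Of 607 microRNAs tested, 241 (39.7%) passed, 75 of them higher and 166 lower in *Spalax*.

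That comparison lacks the unpaired mouse library, which is in the mouse table only. In RPM (reads scaled to the library total) that library was above all 4 *Spalax* UIS libraries for miR-298-5p (40.4 against 22.5 to 35.2) and for miR-296-3p (6.99 against 1.94 to 4.68), and below them for miR-296-5p (2.01 against 7.09 to 10.96). With it added, on reads scaled to totals, the differences were 1.60 for miR-298-5p (limma, adjusted p = 0.125), 1.76 for miR-296-3p (0.234) and 2.17 for miR-296-5p (0.0437), so that miR-298-5p and miR-296-3p lost their calls and miR-296-5p gained one. The reads of both species carry mouse microRNA names and may match them unequally well. The species also differed in dose, time after injection and age. In the study's list of animals the mice were male, and these *Spalax* were female except Sp2230. A difference between species cannot be told apart from any of these.

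The 2 arms of miR-296 can be compared within a library without any size factor. On the UIS the 5p arm held most miR-296 reads in the paired animals, with 61.2% in Sp600 (Wilson 95% interval 52.7 to 69.0), 78.6% in Sp976 (70.1 to 85.2), 65.8% in Sp2230 (57.8 to 72.9), 70.1% in Sp2240 (63.5 to 76.0), 79.2% in mouse M1023 (59.5 to 90.8) and 86.7% in mouse M512 (70.3 to 94.7). On the IS it held 30.3% (27.1 to 33.8), 24.8% (21.3 to 28.7), 52.9% (41.2 to 64.3), 30.8% (12.7 to 57.6), 33.7% (31.4 to 36.2) and 33.9% (22.9 to 47.0) in the same order. The 5p share was lower on the IS in 6 of 6 animals, granuloma and fibrosarcoma alike, and the 2 intervals overlapped in Sp2230 only. The share of 30.8% in Sp2240 is 4 of 13 reads, and the intervals cover counting error only.

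The other 2 mouse libraries were at 25.7% (23.8 to 27.8) in the tumor of M1019 and at 22.3% (15.4 to 31.3) in the unpaired UIS library, so that 1 of 3 mouse UIS libraries had the balance seen on the IS. If the unpaired library were the UIS of M1019, the 5p share of that animal would not be lower on the IS, and the count would be 6 of 7 animals. Over the 6 animals the 5p share moved by a mean of -39.2 percentage points. This pattern was noticed after the values were seen and has no test. Of 149 hairpins with at least 10 reads over both arms in each paired library, 42 (28.2%) moved in a single direction in all 6 animals. A lower 5p share on the IS in all 6 was seen in 27 (18.1%). The median size of the mean move was 0.761 points and that of miR-296 was the largest of the 149. Moves the other way in all 6 animals reached 36.3 points for miR-455 and 32.2 points for miR-664. The hairpins were not matched for depth or for the balance of their arms, and miR-296 had 13 reads in its lowest library. Between the species the 5p share on the UIS was 68.9% ± 7.40 in *Spalax* (SD, n = 4) and 62.7% ± 35.2 in mice (n = 3; exact two-sided permutation test, p = 0.857). With 4 against 3 libraries the smallest p this exact test can give is 0.0571, so it could not have passed 0.05.

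**Figure D4:**
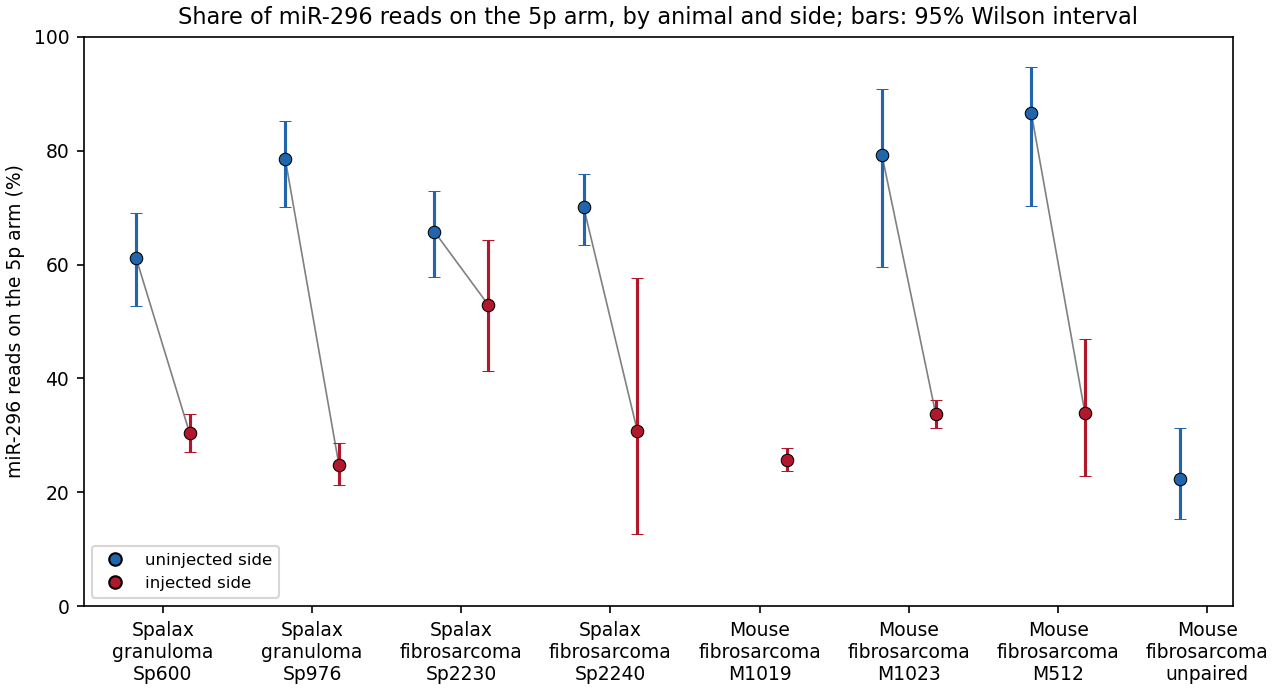
Share of miR-296 reads on the 5p arm in percent (vertical axis) for each animal (horizontal axis), with the uninjected side in blue, the injected side in red and 95% Wilson intervals as bars, and a grey line joining the sides of an animal. The share is lower on the injected side in all 6 paired animals, and the unpaired mouse library of the uninjected side is at 22.3%.

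The balance between the 2 hairpins moved less. The reads of miR-298-5p were 2.23 to 2.78 times those of both miR-296 arms together in *Spalax* UIS and 2.11 and 2.15 times in the granulomas. They were 3.43 and 8.54 times as many in the *Spalax* fibrosarcomas of Sp2230 and Sp2240, 2.29 to 4.50 times in mouse UIS and 4.30 to 11.9 times in mouse IS. In *Spalax* the ratio was thus about the same in muscle and granuloma and higher in both fibrosarcomas, but beyond counting error in Sp2240 only. In the fibrosarcoma of Sp2230 miR-298 held 77.4% of the pair's reads (Wilson interval 72.4 to 81.8). The UIS of Sp2230 was at 73.5% (69.7 to 77.0), so these intervals overlapped. In Sp2240 the share was 89.5% (82.9 to 93.8) on the IS and 69.0% (65.4 to 72.4) on the UIS. The tumor of Sp2240 had only 13 miR-296 reads. In mouse M1023 the share was 81.1% (80.3 to 82.0) on the IS and 69.6% (58.8 to 78.7) on the UIS. In M512 it was 92.3% (90.1 to 94.0) and 72.5% (63.4 to 80.0), so the intervals of the sides did not overlap in either mouse. The UIS libraries of M1023 and M512 had only 24 and 30 miR-296 reads. The unpaired UIS library was at 81.8% (78.4 to 84.8). On the UIS miR-298 made up 71.5% ± 1.89 of the reads of the pair in *Spalax* (SD, n = 4) and 74.6% ± 6.37 in mice (n = 3; exact two-sided permutation test, p = 0.514, with the same smallest possible p of 0.0571).

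The microRNAs whose profiles lay nearest to the pair over the 8 *Spalax* libraries all came from the imprinted Dlk1-Dio3 locus, a large cluster of maternally expressed microRNAs. Likeness was measured as the root mean square distance between centred log2 profiles, with no test. These libraries hold the contrast the pair was chosen on, so microRNAs that share this contrast lie near the pair through that choice. Nearest to miR-296-5p were miR-433-3p (0.74), miR-379-5p (0.82) and miR-543-3p (0.83), nearest to miR-296-3p were miR-1193-5p (0.48), miR-379-3p (0.49) and miR-134-5p (0.57), and nearest to miR-298-5p were miR-431-3p (0.38), miR-666-3p (0.48) and miR-668-3p (0.55). Of the 444 candidates, 59 (13.3%) were on the Dlk1-Dio3 list. Between the members themselves the distances were 0.72 for miR-296-3p and miR-298-5p, 0.92 for miR-296-5p and miR-298-5p and 1.18 for the 2 arms of miR-296, so the 2 arms of one hairpin were farther apart than either was from miR-298-5p.

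Over the 6 mouse libraries 7 of 9 nearest places went to the Dlk1-Dio3 list, which held 67 of the candidates (12.3%). miR-298-5p lay near miR-369-5p (0.29), miR-540-3p (0.41) and miR-409-3p (0.43), and miR-296-3p near miR-679-5p (0.63), miR-409-3p (0.68) and miR-134-5p (0.82). miR-296-5p lay near miR-511-3p (0.53) and miR-218-1-3p (0.53), which are not on the list, and miR-540-5p (0.58). The distance between the 2 arms of miR-296 was 1.67, against 1.36 for miR-296-5p and miR-298-5p and 0.69 for miR-296-3p and miR-298-5p.

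**Figure D5:**
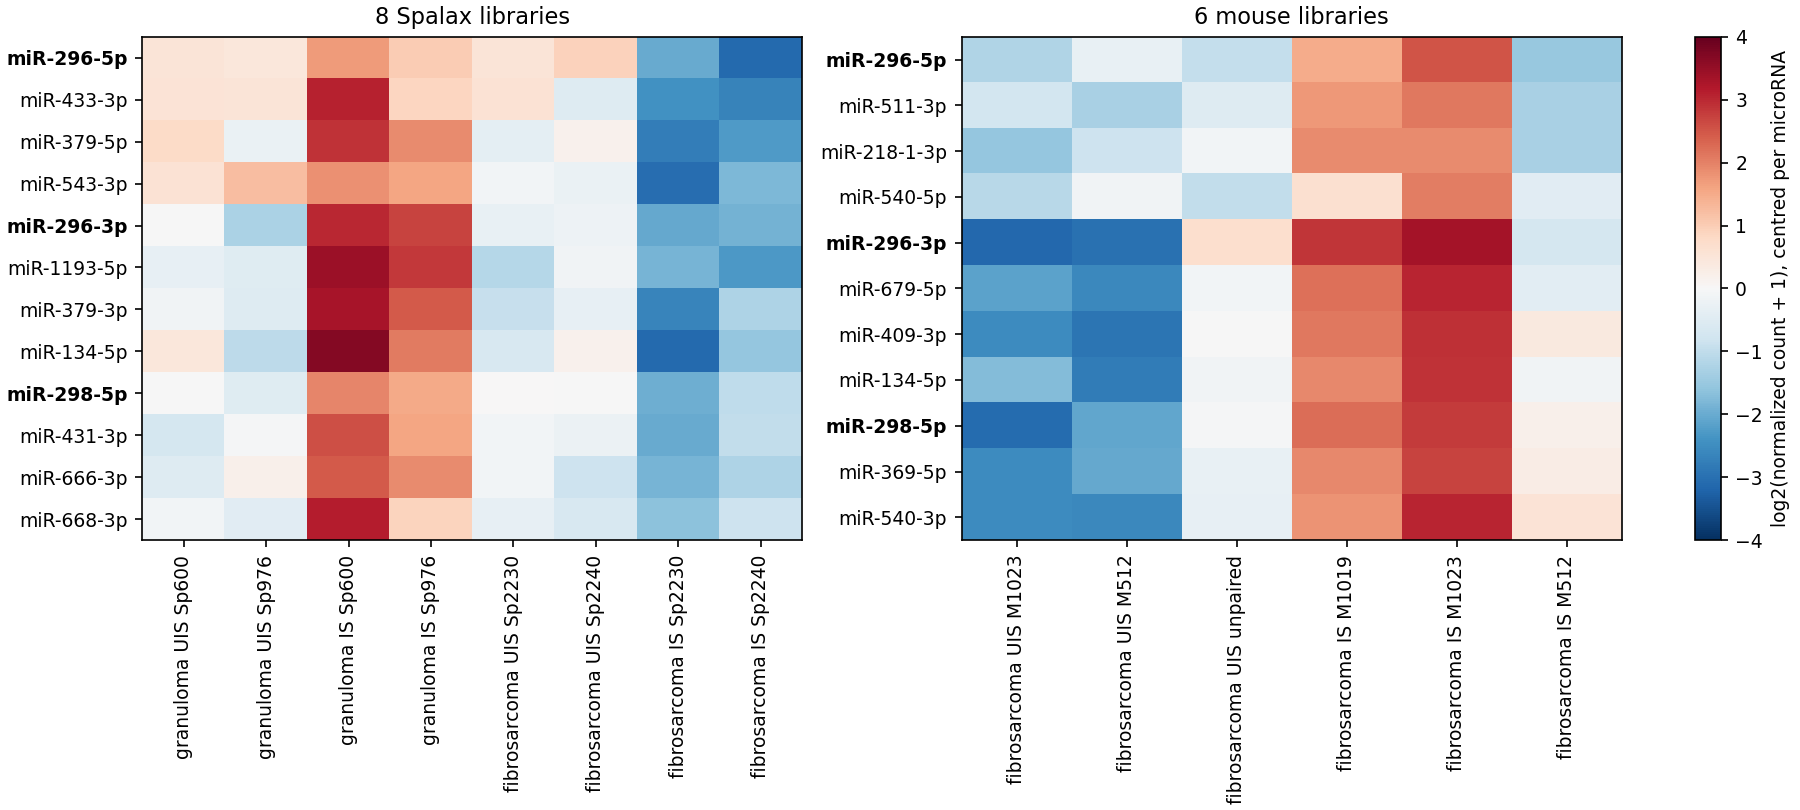
Centred log2(normalized count + 1) of the 3 arms (bold) and of the microRNAs with the nearest profiles, 1 row per microRNA and 1 column per library, in 8 Spalax libraries and in 6 mouse libraries, red above and blue below the row mean. In Spalax the rows are red in the granulomas and blue in the fibrosarcomas, with root mean square distances of 0.38 to 0.83 to their member. The pair was chosen on this contrast, and the other rows were picked for likeness to the pair.

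The other imprinted microRNAs were counted from lists chosen with earlier results known. Of the Dlk1-Dio3 list, 59 arms were tested in *Spalax*, and 45 rose and 0 fell in granuloma (median log2 fold change 2.88, against 0.13 over all 447, of which 114 rose and 102 fell). In *Spalax* fibrosarcoma 0 rose and 14 fell (median -1.33, against -0.23 over all, of which 68 rose and 99 fell), but 1 fell with reads scaled to totals (median -0.044). In mouse fibrosarcoma 61 of 67 rose and 0 fell (median 3.12, against 0.21 over all 547, of which 176 rose and 140 fell). Of the 17 microRNAs called for the difference of the *Spalax* changes, all with the granuloma change above the fibrosarcoma change, 13 were on the list. These calls were not stable. With a pseudocount of 0.1 or without a filter 0 microRNAs passed, and with the animal as a block 5 did.

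Single members of that locus, also named with earlier results of these data known, show the sizes. Their adjusted p-values are therefore not independent support. miR-370-3p rose by 3.40 ± 0.75 in granuloma (limma, adjusted p = 0.00921), fell by 2.76 in *Spalax* fibrosarcoma (SE 0.75, adjusted p = 0.0242) and rose by 4.97 ± 1.27 in mice (adjusted p = 0.0153). miR-127-3p, which is antisense to the imprinted gene *Rtl1*, rose by 2.16 ± 0.59 in granuloma (limma, adjusted p = 0.0195), fell by 1.94 in *Spalax* fibrosarcoma (adjusted p = 0.0352) and rose by 2.33 ± 0.57 in mice (adjusted p = 0.0131). miR-409-3p rose by 4.52 ± 0.59 in granuloma (limma, adjusted p = 0.00105) and by 3.62 ± 0.94 in mice (adjusted p = 0.0158) and was at -0.64 ± 0.59 in *Spalax* fibrosarcoma (adjusted p = 0.424). miR-410-3p was at 1.10 ± 0.70 in granuloma (limma, adjusted p = 0.227), fell by 2.30 in *Spalax* fibrosarcoma (adjusted p = 0.0355) and rose by 3.12 ± 0.42 in mice (adjusted p = 0.00212). With reads scaled to totals none of these falls in *Spalax* fibrosarcoma passed: miR-370-3p was at -1.29, miR-127-3p at -0.26 and miR-410-3p at -0.63, while miR-409-3p turned to 1.03 (limma, adjusted p = 0.191, 0.740, 0.493 and 0.181).

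The remaining imprinted loci were smaller or took another course, and they too were chosen with earlier results of these data known. Both arms of miR-335, from an intron of the paternally expressed gene *Mest*, fell in *Spalax* fibrosarcoma, miR-335-5p by 3.43 (limma, adjusted p = 0.0220) and miR-335-3p by 3.65 (adjusted p = 0.0106), and both rose in mice, by 3.13 ± 1.12 (adjusted p = 0.0472) and 3.16 ± 1.12 (adjusted p = 0.0459). With reads scaled to totals the values of miR-335-5p and miR-335-3p in *Spalax* fibrosarcoma were -1.76 and -2.00 and did not pass (limma, adjusted p = 0.150 and 0.0693). In granuloma miR-335-5p and miR-335-3p were at -1.55 ± 0.92 and -1.84 ± 0.79 (limma, adjusted p = 0.197 and 0.0905). miR-483 and miR-675, from the Igf2-H19 locus, had 1 arm tested in *Spalax* and 3 in mice, and none passed. Of the Sfmbt2 list, a rodent cluster of repeated microRNAs whose near-identical copies share reads, 1 arm was tested in *Spalax* and fell in granuloma (not with reads scaled to totals), while in mice 30 of 34 rose and 1 fell.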

How the data were processed

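MicroRNA libraries (TruSeq Small RNA, 1 lane) were made from the tumor and the opposite side of each animal. The authors trimmed adaptors, mapped the reads with mirDeep to mouse microRNA names and deposited DESeq2-normalized values in 2 tables, 1 for mice and 1 for both species, which were read here as a signal per microRNA (reads divided by a size factor). The genome build of the microRNA mapping is not given in the sources used here, and GRCm38, TopHat 1.4.1, HTSeq and DESeq are named in the submitters' processing notes without a role. The steps of these values gave back whole reads for 100% of 25194 values (tolerance 0.001), and reads of the 5 libraries in both tables were identical. Sequencing reads carry no molecular identifiers, so intervals and floors (3 reads) cover counting error only.

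The main test was limma 3.58.1 in R 4.3.3 with a trend, on log2(value + 1), Benjamini-Hochberg adjusted, at a threshold of 0.05, for microRNAs at 10 or more in at least 2 libraries (*Spalax*, both species) or 3 (mice). *Spalax*, mouse and both-species libraries were fitted separately in 8, 6 and 13 libraries, and this scale makes the fold changes of rare microRNAs too small. On the recovered reads edgeR 4.0.16 called 212 microRNAs in granuloma, 163 in *Spalax* fibrosarcoma, 21 for the difference of the changes, 311 in mice, 0 between the *Spalax* UIS groups and 224 between species. DESeq2 1.42.0 was another alternative. Both sides came from the same animal, and deviations of the paired libraries correlated at 0.0875 in granuloma, -0.0159 in *Spalax* fibrosarcoma, and -0.151 (M1023) and 0.116 (M512) in mice. Replicates are separate animals, and the lowest chi-square per degree of freedom between replicates was 327.

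The hairpins were folded with RNAfold 2.7.2. Arm shares have Wilson intervals, and shares between species were compared with exact permutation tests (SciPy 1.17.1). The fitting code was tested on simulated data. The members, lists and named microRNAs were chosen with earlier results of these data known. Named were the 3 members tested, the 3 nearest profiles of each and 10 microRNAs of other imprinted loci, of which miR-675-5p did not pass the filter. Groups by shared seed were not used here.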

Additional observations from a re-analysis of the deposited data

Results flagged for a closer look

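In 5 cases every animal of one condition moved in one direction and every animal of another moved in the opposite one, with 2 animals each. Only the members were searched for such cases. How many of all microRNAs tested would meet the same rule was not counted, so the number says nothing particular about the pair. The difference was not tested here. For granuloma against *Spalax* fibrosarcoma, where the pair had been chosen on this contrast, the mean within-animal changes of log2(normalized count + 1) differed by 4.15 for miR-296-5p (0.88 against -3.27), by 5.25 for miR-296-3p (3.52 against -1.73) and by 3.47 for miR-298-5p (1.97 against -1.49). For mouse against *Spalax* fibrosarcoma they differed by 6.11 for miR-296-3p (4.38 against -1.73) and by 5.58 for miR-298-5p (4.09 against -1.49), with the 2 species on separately normalized tables. As a share of reads, the fibrosarcomas of Sp2230 and Sp2240 were at 0.829 and 1.57 times their UIS for miR-298-5p. For miR-296-3p they were at 0.925 and 0.946 times. With reads scaled to totals its difference in *Spalax* fibrosarcoma was -0.09 ± 0.53 (SE). For both arms the fall in *Spalax* fibrosarcoma thus depends on the scale.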

How the results depend on the processing

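Of the recomputed values, 218 were rated as kept and 51 were not, 2 of which changed sign. A tested change of a member was kept if its direction and its side of the threshold held. A described change was kept if its direction held and it moved by less than the spread between replicates. A count of microRNAs called was kept if it stayed within a set ratio of the main count. The arm share between species had 1 alternative, libraries with at least 20 reads, which left out no library. Scaling to library totals moved the granuloma changes of miR-296-5p, miR-296-3p and miR-298-5p to 2.71, 5.33 and 3.81, the *Spalax* fibrosarcoma changes to -1.64, -0.094 and 0.19, and the mouse changes of miR-296-5p and miR-296-3p to 3.97 and 5.87, both then past the threshold. edgeR put miR-296-3p in *Spalax* fibrosarcoma at -1.99. DESeq2 called miR-296-5p (2.26, adjusted p = 0.0239) and miR-296-3p (3.24, adjusted p = 0.0176) in mice, and the animal as a block called miR-296-3p (4.38, adjusted p = 0.0198). The block changed no other call of the members, and left 210 microRNAs called in granuloma, 151 in *Spalax* fibrosarcoma and 227 in mice.

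The number called for the difference of the *Spalax* changes was 17, but 0 with a pseudocount of 0.1 (89 at an unadjusted p under 0.05), 0 without a filter (107 unadjusted), 61 by DESeq2, 5 with the animal as a block and 0 to 39 when 1 library was left out. Leaving out 1 library gave 129 to 193 calls in granuloma and 77 to 155 in *Spalax* fibrosarcoma. The difference of the changes then ranged from 3.60 to 4.69 for miR-296-5p, 4.63 to 5.87 for miR-296-3p and 3.01 to 3.93 for miR-298-5p. The mouse changes ranged from 0.81 to 2.81 for miR-296-5p, 2.89 to 4.92 for miR-296-3p and 2.81 to 4.33 for miR-298-5p. miR-296-3p passed in mice without the unpaired library (adjusted p = 0.0248) or the tumor of M512 (adjusted p = 0.0166), by limma.

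On the UIS, the granuloma-bearing minus fibrosarcoma-bearing difference of miR-296-3p ranged from -1.03 to 0.21, changing sign without the UIS of Sp976. *Spalax* minus mouse ranged from 2.75 to 3.38 for miR-296-3p and from 1.87 to 2.97 for miR-298-5p. With the unpaired mouse library, on reads scaled to totals and chosen after the data were seen, these were 2.17, 1.76 and 1.60 for miR-296-5p, miR-296-3p and miR-298-5p. The cause of these changes was not tested. Depth limits miR-298-3p and the low values of miR-296, and 2 or 3 animals per group limit every comparison.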

Other observations

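Among the other hairpins whose 5p share was lower on the IS in all 6 paired animals, miR-542 had the largest mean move (-24.2 percentage points). It was followed by miR-379 of the Dlk1-Dio3 locus (-19.3 points) and miR-324 (-17.0 points). In the other direction miR-455 (36.3 points) and miR-664 (32.2 points) moved in all 6 animals. These names were picked after their values were seen.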
